A study of Homo sapiens with 5 samples.

Results

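The DNA replication machinery was followed through 53 listed genes, out of 19775 genes represented on the arrays. Each gene was read from 1 Affymetrix probe set that carries its symbol alone, chosen for having the highest mean over the 5 arrays. All 53 genes had such a probe set. The genes were listed by name and function, from origin licensing to chromatin copying. All RNA came from PC-3, a human prostate carcinoma line that grows without androgen. One array held cells grown flat in dishes under normal conditions (2D), and one held cells grown as spheroids, clusters in 3 dimensions. Another held cells that express a control short hairpin RNA against GFP (shGFP), and the last 2 held cells with different hairpins against TRIB1, labelled shTRIB1-1 and shTRIB1-2. TRIB1 encodes a pseudokinase that presents proteins to the ubiquitin ligase COP1. No treatment was given to any culture, per the labels. The labels describe growth in dishes for every sample, the spheroids included. The sources used here do not give the vector and promoter behind the hairpins, whether each line is a clone or a pool, or the way the spheroids were formed. The 2D, spheroid and shGFP conditions have 1 array each, which leaves differences between them without a replicate check, and the 2 hairpins against TRIB1 are different reagents rather than repeats of one. Separate cultures are not stated in the labels, so any p-value measures only the spread between these arrays, which may be technical.

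A level here is the log2 of the deposited intensity, a difference of -1 between levels is therefore a 2-fold lower intensity, and a level under 6 is treated as near background. TRIB1, the gene the hairpins target, had levels of 11.97 with shGFP, 11.91 with shTRIB1-1 and 11.76 with shTRIB1-2, against 11.04 in 2D and 11.23 in spheroids. Depletion is thus hardly visible at this probe set, and the hairpin arrays are named below by their labels. The median intensity differed little between arrays, from 32.97 to 33.36. The 5′ to 3′ ratio of actin probe sets, a measure of how far labelled RNA reaches from its 3′ end, was 0.436 to 0.445 with hairpins, 0.184 in 2D and 0.131 in spheroids. The same ratio of GAPDH was 0.929 to 0.944 with hairpins, 0.895 in 2D and 0.763 in spheroids, so that by GAPDH the spheroid array was the one apart. For thr, a spike-in control, the ratio was 0.217 to 0.269 with hairpins, 0.113 in 2D and 0.091 in spheroids, which parts the arrays as actin does. The part of these ratios in the results below was not tested. The epithelial markers KRT8, KRT18, KRT19, EPCAM and CDH1 were between 9.39 and 13.19 on every array, but their summed intensity was 13499 in spheroids, 19094 in 2D and 17835 to 19777 with hairpins. KRT19 and KRT8 differed by -0.79 and -0.78 between spheroid and 2D. Of 5 fibroblast markers none reached a level of 6 on any array. Their summed intensity was 123 in 2D and 174 in spheroids, with COL3A1 at 3.82 and 5.80. Of 4 blood markers with a probe set 1 reached a level of 6 on every array, HBB, at 6.15 to 6.25. Of 3 androgen-responsive markers with a probe set, KLK3 had the same level of 6.90 on every array. KLK2 stayed under 6, and TMPRSS2 was at 5.62 to 7.09. Levels not far above 6 may thus also lie near background, and several members had such levels in spheroids, among them TK1 (6.61) and CDC45 (6.12). Among 3 endothelial markers CDH5 and VWF stayed under 6, while PECAM1 was at 7.57 in 2D and 9.53 in spheroids, so that their summed intensity was 238 in 2D, 784 in spheroids and 100.0 to 153 with hairpins. Every sample is labelled PC-3, and these marker levels alone do not show other cells to be present. The part of the marker differences in the members' differences was not tested.

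A cell copies its genome once per cycle. In G1 the origin recognition complex, CDC6 and CDT1 load the MCM helicase onto DNA, and geminin (GMNN) later keeps CDT1 from loading it again. The kinase CDC7 with its activator DBF4, together with CDC45 and the GINS complex, then turns the loaded helicase into a moving fork, where primase and the polymerases alpha, delta and epsilon make new strands held by the sliding clamp PCNA. Most of these genes are transcribed from the G1/S boundary onward under E2F factors, so that their messenger levels are widely read as a sign of cycling cells. In RNA from a whole culture, fewer cells in S phase and less messenger RNA per cell cannot be told apart.

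A feature shared by many of the members, and not used in listing them, lies in their promoters. RefSeq promoters (GRCh38.p14, 250 bases before to 50 after each start) were at hand for 47 of the 53 genes, 61 promoters in all. An E2F-type word, that is TTTCCCGC, TTTGCCGC, TTTCGCGC or TTTGGCGC on either strand, was present in 25 of these 61 promoters (41.0%), and in 1164 of all 35116 promoters (3.31%). By gene, 24 of the 47 had one. The CCAAT box (CCAAT, either strand) was present in 57.4% of the members' promoters and 34.6% of all promoters, and TTTGAA, the cell cycle homology region (CHR) of many mitotic promoters, in 3.28% and 15.2%. The 19 mitotic genes with a promoter had the opposite order, with TTTGAA in 71.4% of their 21 promoters and an E2F-type word in 14.3%. The origin licensing genes had the E2F-type word most often among roles with more than 1 gene, in 7 of 9 genes with a promoter. These are matches of letters and not shown to be bound sites. The stretches below are those of the 5 genes with the largest spheroid differences among genes whose word lies wholly before the start (for UHRF1 the first of its starts), then MCM6, in which words on both strands overlap, and PCNA. They were picked with their values known. Capitals mark the word or its reverse complement, and each stretch runs 5′ to 3′ on the gene's own strand and ends at or before the base ahead of the start.
UHRF1, chr19:4909457-4909500, plus strand: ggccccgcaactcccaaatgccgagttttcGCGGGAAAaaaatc
TYMS, chr18:657584-657651, plus strand: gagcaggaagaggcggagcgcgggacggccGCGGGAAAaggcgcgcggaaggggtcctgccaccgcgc
GINS2, chr16:85688955-85689015, minus strand: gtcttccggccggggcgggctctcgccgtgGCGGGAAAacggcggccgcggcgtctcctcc
CDT1, chr16:88803724-88803788, plus strand: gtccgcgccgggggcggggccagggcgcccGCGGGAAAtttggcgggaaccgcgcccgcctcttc
POLA1, chrX:24693751-24693818, plus strand: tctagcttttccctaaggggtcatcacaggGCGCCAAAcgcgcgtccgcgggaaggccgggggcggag
MCM6, chr2:135876492-135876563, minus strand: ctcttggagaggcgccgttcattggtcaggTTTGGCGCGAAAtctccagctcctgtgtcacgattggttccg
PCNA, chr20:5126644-5126711, minus strand: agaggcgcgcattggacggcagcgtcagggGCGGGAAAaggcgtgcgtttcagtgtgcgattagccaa

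In UHRF1, TYMS, GINS2, CDT1 and PCNA the word is the same, TTTCCCGC read on the opposite strand, and it begins 14 to 59 bases before the start. For contrast, the 60 bases before the start of RPA1 and RFC1, which are among the members that differed least between spheroid and 2D, held no E2F-type word, and neither did the rest of their promoters.
RPA1, chr17:1829945-1830004, plus strand: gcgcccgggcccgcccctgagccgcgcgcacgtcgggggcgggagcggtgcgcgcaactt
RFC1, chr4:39366363-39366422, minus strand: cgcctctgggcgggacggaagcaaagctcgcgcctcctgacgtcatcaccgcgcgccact

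Differences overlapped widely between members with and without the word. Between spheroid and 2D the 24 genes with it had a median difference of -1.49 (from -2.37 to -0.89) and the 23 without it -1.20 (from -3.07 to 0.53). TK1, RRM2 and CDC45, which were among the lowest of all, had none of the listed words in these promoters. Other forms of E2F site were not searched for, so this is no split by E2F site.

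Spheroid and 2D cells were compared to see what growth as clusters goes along with. Replication genes were lower in spheroids nearly throughout. Of the 53 members 51 were lower, 42 of them by at least 2-fold, while none was 2-fold higher. RFC5, 1 of the 2 that were higher, has other probe sets that were lower, and read from those the counts are 52 and 43. Among all 10570 genes at a level of at least 6 on either array, 5.23% were at least 2-fold lower and 5.05% at least 2-fold higher. The members' median difference was -1.29, or 2.45-fold, against -0.01 over all genes, whose 5th to 95th percentile ran from -1.03 to 1.00. The differences were graded: 7 members were at least 4-fold lower, 35 between 2- and 4-fold lower, and 11 differed by less than 2-fold. The 2D array was the highest of all 5 for 51 members, where this held for 24.3% of the 10843 genes at a level of at least 6 on any array. The spheroid array was the lowest of the 5 for 35 members, where it was so for 28.1% of those genes. ORC1 and CLSPN reached a level of 6 on the 2D array alone, and their differences rest on signals near background. Without them 40 of 51 members were at least 2-fold lower.

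**Figure D1:**
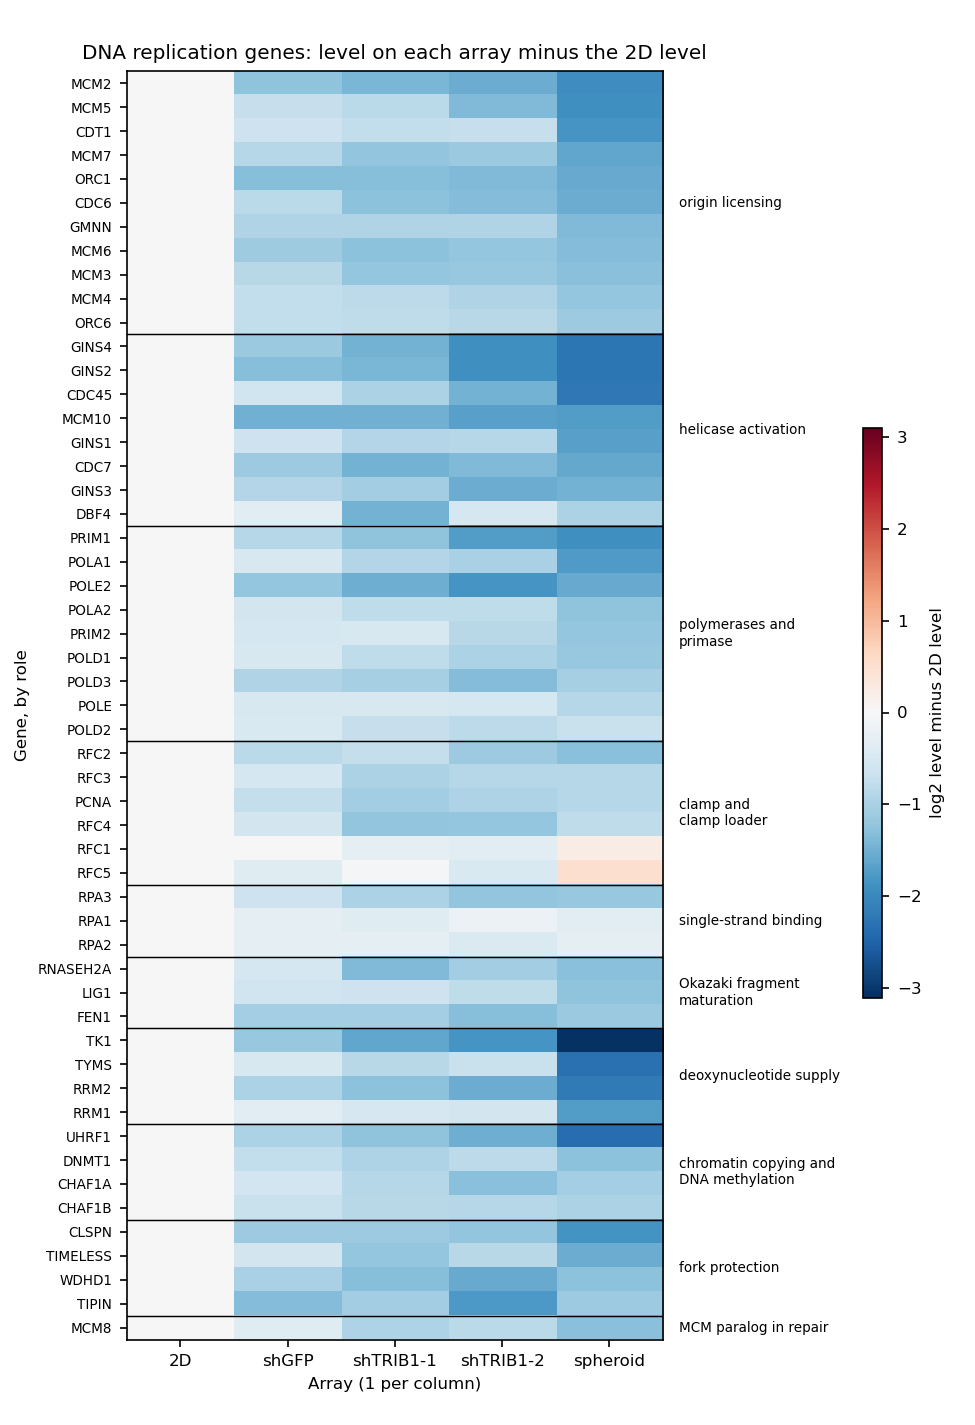
Level of each of the 53 replication genes on each array (columns) minus its level on the 2D array, on the log2 scale, with genes in rows grouped by role. Blue is lower than 2D, and the spheroid column is the darkest for 35 genes, with RFC1 and RFC5 alone above 0 there.

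The 4 listed enzymes that supply deoxynucleotides stood at the low end. All were at least 2-fold lower in spheroids (median -2.26). TK1, the thymidine kinase of S phase, was at 9.68 in 2D, 8.51 with shGFP, 8.07 with shTRIB1-1, 7.86 with shTRIB1-2, and 6.61 in spheroids. It had the largest difference of all members, -3.07 or 8.40-fold. TYMS, thymidylate synthase, was at 12.18 in 2D, 11.68, 11.33 and 11.49 on the shGFP, shTRIB1-1 and shTRIB1-2 arrays, and 9.86 in spheroids, a difference of -2.32. The 3 hairpin arrays lay near 2D for this gene and the spheroid array far below. RRM2, the regulated small subunit of ribonucleotide reductase, was at 12.40 in 2D, 11.42, 11.12 and 10.87 on the hairpin arrays in the same order, and 10.21 in spheroids. Its large subunit RRM1 was at 11.41, then 11.09, 10.88 and 10.84, and 9.68 in spheroids, so that RRM1 (-1.73) differed less than RRM2 (-2.19). Other genes of nucleotide metabolism outside the 53 did not all do so: DTYMK and DUT, which make and guard thymidine nucleotide precursors, differed by -1.20 and -1.17, the kinase DCK by -0.53, the hydrolase SAMHD1 by -0.03 and the alternative reductase subunit RRM2B by 0.37.

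Of the 11 origin licensing genes, all were at least 2-fold lower in spheroids than in 2D, with differences from -1.93 to -1.12. The 6 subunits of the replicative MCM helicase were graded. MCM2 was at 9.71 in 2D and 7.78 in spheroids, and MCM5 at 8.64 and 6.74, differences of -1.93 and -1.91. MCM7 differed by -1.61, MCM6 by -1.35, MCM3 by -1.29 and MCM4 by -1.19. On the shGFP array these 6 subunits lay between the 2D and spheroid arrays, for example MCM2 at 8.47 and MCM5 at 7.93. The loaders stood with them. CDT1 was at 8.68 in 2D, 8.05, 7.92 and 7.97 on the shGFP, shTRIB1-1 and shTRIB1-2 arrays, and 6.85 in spheroids, where all 3 hairpin arrays were far above the spheroid array. CDC6 was at 8.43 in 2D, 7.60, 7.17 and 7.09 on the hairpin arrays, and 6.90 in spheroids. GMNN, the inhibitor of CDT1, was lower as well, at 10.82 in 2D and 9.45 in spheroids, and at 9.88 on every hairpin array. ORC1 and ORC6, subunits of the origin recognition complex, differed by -1.57 and -1.12.

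Of the 8 genes that turn loaded helicase into a fork, 7 were at least 2-fold lower in spheroids (median -1.71). CDC45 was at 8.34 in 2D, 7.72, 7.36 and 6.87 on the shGFP, shTRIB1-1 and shTRIB1-2 arrays, and 6.12 in spheroids, a difference of -2.22. The 4 GINS subunits, which bind one another as a ring-like complex beside CDC45, did not all differ equally. GINS4 was at 8.71 in 2D and 6.47 in spheroids (-2.24) and GINS2 at 9.68 and 7.45 (-2.23), whereas GINS1 was at 10.08 and 8.39 (-1.69) and GINS3 at 8.07 and 6.61 (-1.46). MCM10, which helps the helicase start, was at 7.86 in 2D but at 6.36, 6.36 and 6.17 on the hairpin arrays and 6.12 in spheroids. At this probe set the 2D array stood alone and the other 4 lay close together, not far above a level of 6. Another MCM10 probe set was at 8.21 in 2D, 6.57, 6.41 and 5.86 on the hairpin arrays, and 5.78 in spheroids. The closeness of those 4 arrays thus depends on the probe set. The kinase gene CDC7 was at 9.20 in 2D and 7.62 in spheroids (-1.58). DBF4, its activator, was just short of 2-fold lower, at 10.67 and 9.68 (-0.98).

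Polymerase and primase genes were lower in all 9 cases and at least 2-fold lower in 7 (median -1.20). PRIM1, the catalytic primase subunit, was at 10.23 in 2D, 9.35, 8.98 and 8.50 on the shGFP, shTRIB1-1 and shTRIB1-2 arrays, and 8.34 in spheroids (-1.89). POLA1, the catalytic subunit of polymerase alpha, was at 8.89, then 8.40, 7.97 and 7.89, and 7.13 in spheroids (-1.76). Their partners differed less, PRIM2 by -1.20 and POLA2 by -1.24. Within polymerase epsilon the accessory subunit POLE2 was at 10.96 in 2D and 9.38 in spheroids (-1.57), and the catalytic POLE at 7.58 and 6.69 (-0.89). In spheroids POLE lay under the level of 6.90 that KLK3 had on every array. Whether background limits its difference was not tested. The delta subunits POLD1, POLD3 and POLD2 differed by -1.17, -1.02 and -0.68.

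The clamp, its loader and single-strand binding proteins had the smallest median differences among roles, -0.83 and -0.33. Of the 6 genes for PCNA and replication factor C, the loader that opens the clamp, 1 was at least 2-fold lower in spheroids, or 2 of 6 with RFC5 read from its other probe sets. PCNA itself was at 11.76 in 2D, 11.01, 10.68 and 10.81 on the hairpin arrays, and 10.87 in spheroids, a difference of -0.89. The spheroid level of PCNA thus lay within the range of the 3 hairpin arrays. RFC2 differed by -1.29, RFC3 by -0.89 (its other probe sets by -1.19 and -1.36) and RFC4 by -0.78. RFC1, the large subunit, was at 9.19 in 2D and 9.43 in spheroids, a difference of 0.24. RFC5 differed by 0.53 at the probe set used and by -1.33 and -1.42 at its other probe sets, which leaves its direction uncertain. Replication protein A, which coats single-stranded DNA, has 3 subunits. RPA1 was at 11.76 in 2D and 11.44 in spheroids (-0.33) and RPA2 at 9.40 and 9.09 (-0.31), but RPA3 at 10.86 and 9.67 (-1.18).

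Among genes that act behind the fork, the 3 that process Okazaki fragments were all at least 2-fold lower in spheroids. RNASEH2A, a catalytic subunit that cuts RNA paired with DNA, differed by -1.29, the ligase LIG1 by -1.25 and the flap nuclease FEN1 by -1.15. FEN1 was at 11.42 in 2D, 10.37, 10.37 and 10.10 on the hairpin arrays and 10.27 in spheroids, so that 2D alone stood apart. UHRF1, which brings the methyltransferase DNMT1 to hemimethylated DNA at forks, was at 11.69 in 2D, 10.72, 10.44 and 10.18 on the hairpin arrays, and 9.32 in spheroids (-2.37). DNMT1 differed less, at 11.53 and 10.24 (-1.28). The chromatin assembly factor subunits CHAF1A and CHAF1B, which deposit histones on new DNA, differed by -1.05 and -0.99. Of the fork protection genes, TIMELESS was at 8.88 in 2D and 7.35 in spheroids (-1.53), its partner TIPIN at 9.33 and 8.20 (-1.13), and WDHD1, which ties polymerase alpha to the helicase, at 9.11 and 7.85 (-1.26). CLSPN, the claspin gene, differed by -1.86 from a 2D level of 6.57. MCM8, an MCM relative that acts in repair, differed by -1.29.

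The size of the spheroid difference depended on which control array was used. The shGFP array is also a control, and it lay below 2D for all 53 members, with a median of -0.75 (from -1.50 to -0.01). In that comparison 13 members were at least 2-fold lower, and none was 2-fold higher. Of 10450 genes, 2.11% were at least 2-fold lower, 2.13% at least 2-fold higher and 47.3% lower by any amount. Against the shGFP array the spheroid median was -0.53 over the 51 members that reached a level of 6, and 12 of them were at least 2-fold lower. Of the 51, 47 were lower by any amount, 3 higher, none of these by 2-fold, and 1 equal. Of 10556 genes, 4.59% were at least 2-fold lower, 4.77% at least 2-fold higher and 51.7% lower by any amount. These 3 comparisons share arrays and are not independent of one another. The 2D and spheroid arrays also had the lower actin 5′ to 3′ ratios, at 0.184 and 0.131 against 0.436 on the shGFP array, so a difference between shGFP and either of them includes that gap. Its part in the members' differences was not tested. With the 2D and shGFP levels averaged as the reference, the spheroid median was -0.93, and 21 of 53 members were at least 2-fold lower, where 4.32% of 10700 genes were.

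Members took different places in these side-by-side values. The 4 deoxynucleotide genes were at least 2-fold lower in spheroids than on the shGFP array as well, with TK1 at -1.90, TYMS at -1.81, RRM1 at -1.41 and RRM2 at -1.21. CDC45 (-1.60), UHRF1 (-1.39), POLA1 (-1.27), CDT1 (-1.20), MCM5 (-1.19), GINS4 (-1.09), GINS1 (-1.04) and PRIM1 (-1.01) completed the 12. At the probe set used, MCM10 was 1.18-fold lower in spheroids than on the shGFP array, while another was at 5.78 and 6.57 there. At the probe set used it differed by -1.50 between shGFP and 2D, the largest such difference among members. FEN1 (-0.10 and -1.05), MCM6 (-0.26 and -1.10) and WDHD1 (-0.25 and -1.01) were alike in this, the first value being spheroid minus shGFP and the second shGFP minus 2D. TIPIN, at 7.98 on the shGFP array, was 0.22 higher in spheroids. RPA2 was equal on both arrays.

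**Figure D2:**
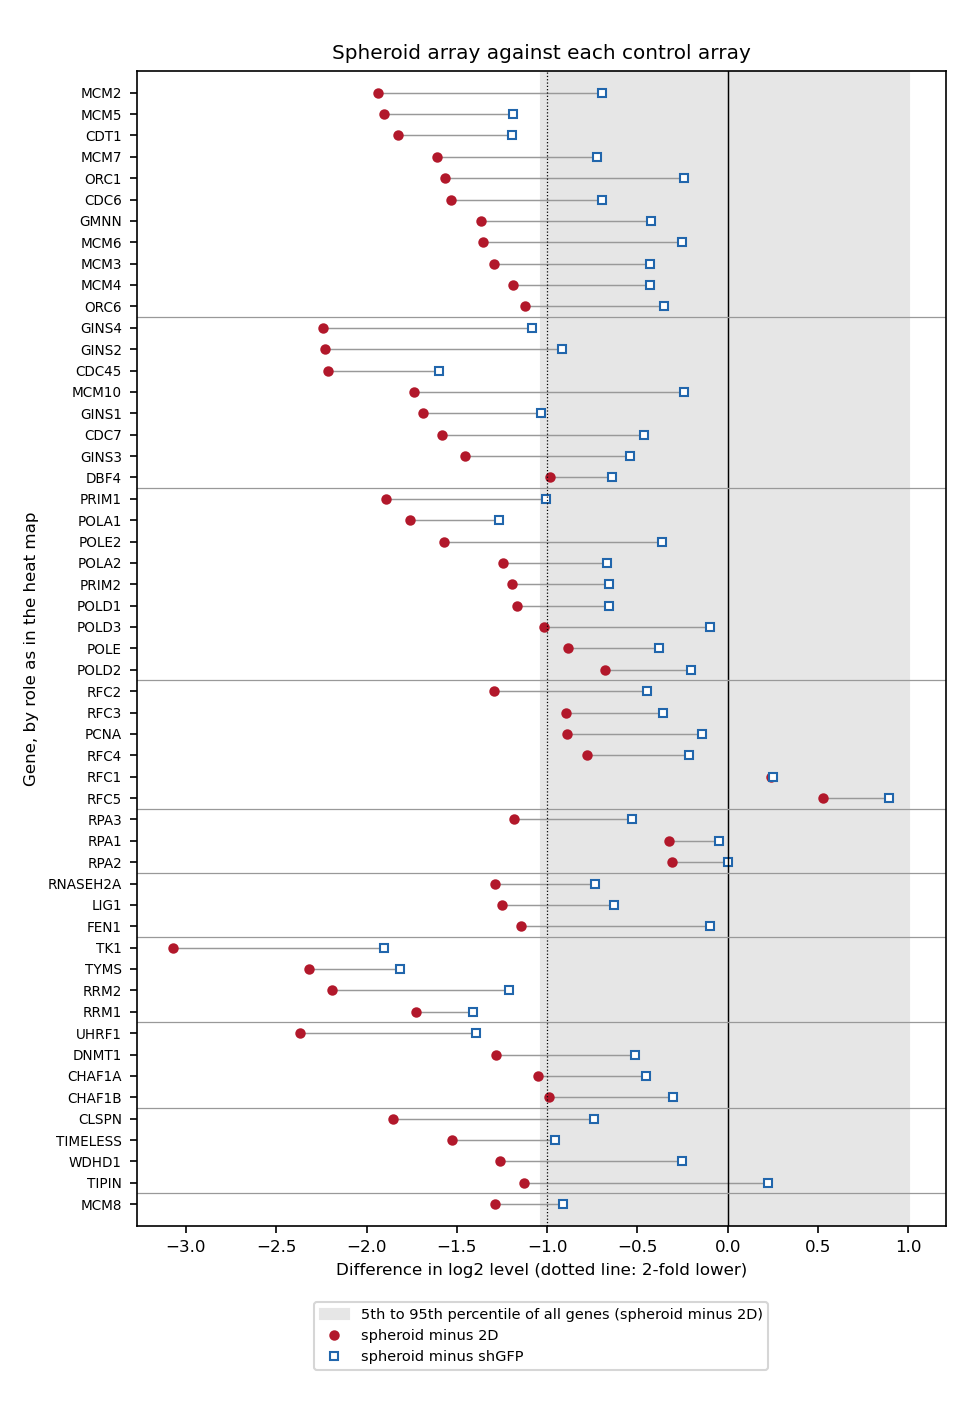
Difference in log2 level of each replication gene between the spheroid array and the 2D array (filled circles) or the shGFP array (open squares), with genes in rows by role; grey marks the 5th to 95th percentile of all genes for spheroid minus 2D, -1.03 to 1.00. Squares lie to the right of the circles for every gene, and 12 of the 51 genes at a level of at least 6 stay at or beyond 2-fold lower against shGFP; ORC1 and CLSPN, drawn as well, are near background on both of those arrays.

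Other probe sets of the same genes gave a check within the arrays. The 53 members had 98 single-symbol probe sets, and 26 members had 1 only. Of the 45 not used above, 29 from 22 genes reached a level of 6 on the 2D or spheroid array. In spheroids 28 of these 29 were lower, 25 by at least 2-fold (median -1.37). Some reached 6 on the 2D array alone, among them probe sets of CDT1 (6.39 in 2D, 5.26 in spheroids) and MCM5 (6.89 and 5.49). Others were of CHAF1A, MCM6, MCM10, POLD3 and RFC3. For such probe sets the filter itself favours a lower spheroid value, so these counts are a weak check. They share their genes and arrays with the values above and add no replicate. RFC5 was the gene whose probe sets disagreed most plainly. The probe set used was at 9.34 in 2D and 9.87 in spheroids, but of the others one was at 10.12 and 8.79 (-1.33) and one at 8.64 and 7.22 (-1.42). Both RFC1 probe sets at this level were higher in spheroids, by 0.24 and 0.21. For RRM2 the second probe set gave -3.04 where the one used gave -2.19, and for GINS2 a dim second one gave -0.03 where the one used gave -2.23.

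**Figure D3:**
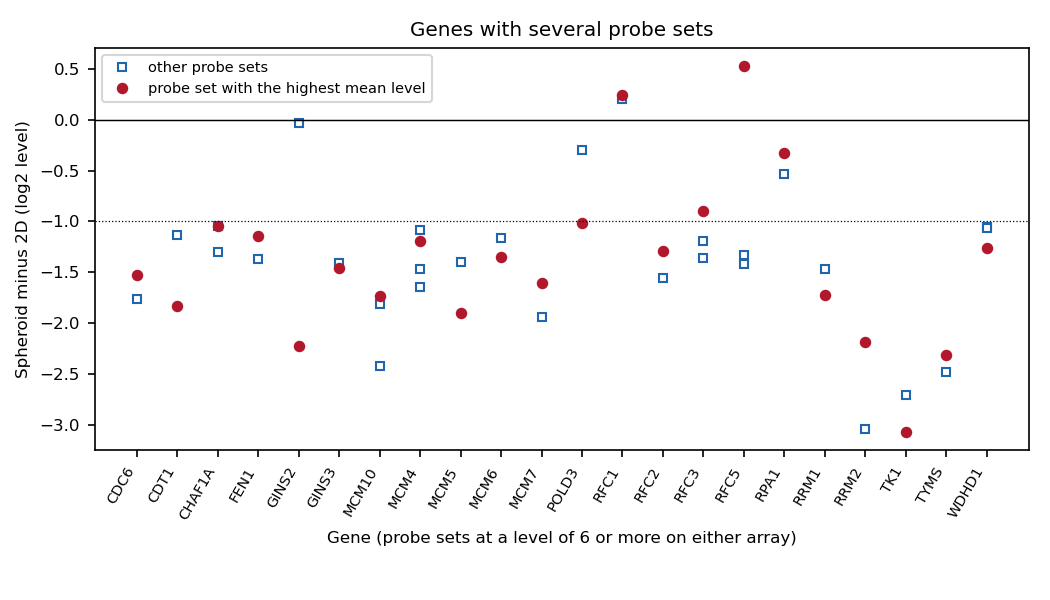
Spheroid minus 2D difference in log2 level for every probe set at a level of at least 6, in the 22 replication genes with more than 1 such probe set; filled circles are the probe sets used, and open squares the others. RFC5 has its used probe set above 0 and both others below -1.

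The shGFP array was the control for the arrays labelled shTRIB1-1 and shTRIB1-2, a comparison meant to show what TRIB1 depletion alters. Differences of the replication genes were small and mostly negative. ORC1 and CLSPN were under a level of 6 on all 3 arrays, which left 51 members. With shTRIB1-1 the median was -0.26, 43 were lower, 4 higher and 4 equal, and 4 were at least 1.5-fold lower, a share of members near the 7.17% among 10522 genes. With shTRIB1-2 the median was -0.32, 49 were lower, 1 higher and 1 equal, and 10 were at least 1.5-fold lower, where 4.12% of genes were. None was 1.5-fold higher with either hairpin, where 6.12% and 5.08% of genes were. Over all genes the medians were -0.03 and -0.01, and 53.5% and 51.3% of genes were lower by any amount. Both comparisons use the same shGFP array, so a low or high value there enters each of them. Limma, fitted across all 10522 genes with Benjamini-Hochberg adjustment, called 0 genes and 0 members, with a smallest adjusted p of 0.951. At an unadjusted p below 0.05 it held 356 genes (3.38%) and 3 members, RFC4, CDC6 and POLA1. The fit has 1 residual degree of freedom, the difference between the hairpins.

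RFC4 was at 10.16 on the shGFP array and at 9.51 with shTRIB1-1 and 9.52 with shTRIB1-2, the tightest of the larger differences, with a mean of -0.65 ± 0.0072 (SD, n = 2). This SD is between the hairpin arrays alone. RNASEH2A was at 9.92 on the shGFP array and at 9.10 and 9.40 on the labelled arrays (-0.67 ± 0.21, SD, n = 2). MCM8 was at 8.22, then 7.64 and 7.77. CDC6 was at 7.60, then 7.17 and 7.09, and POLA1 at 8.40, then 7.97 and 7.89, where the hairpins lay close to each other.

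Several members differed mostly with a single hairpin. DBF4 was at 10.33 with shGFP, 9.19 with shTRIB1-1 and 10.13 with shTRIB1-2, so that its -1.13 with shTRIB1-1, the only 2-fold difference among members, stood against -0.20. With shTRIB1-2 the lowest were PRIM1 (-0.85, against -0.37 with shTRIB1-1), CDC45 (-0.85 against -0.35), GINS4 (-0.76 against -0.32) and CHAF1A (-0.71 against -0.28). MCM5 (-0.65 against -0.12), GINS3 (-0.63 against -0.17) and GINS2 (-0.59 against -0.11) had the same order. Between the labelled arrays 33 of the 51 members were lower with shTRIB1-2 and 16 were lower with shTRIB1-1, where 47.3% and 49.1% of 10522 genes were. TIPIN went opposite ways, 0.27 with shTRIB1-1 and -0.44 with shTRIB1-2, and so did RFC5 at the probe set used, 0.30 and -0.11. The other RFC5 probe sets were lower with both hairpins (-0.34 and -0.54, -0.53 and -0.68), which leaves its direction uncertain here too. RFC2 (0.11 and -0.29), PRIM2 (0.03 and -0.32) and RPA1 (-0.10 and 0.10) also had opposite signs. GMNN had the same value on all 3 hairpin arrays. Exact ties are a feature of the deposited values: 4 of the 51 members (GMNN, MCM10, POLE and FEN1) had the same value on the shGFP and shTRIB1-1 arrays, as did 4.29% of the 10522 genes.

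**Figure D4:**
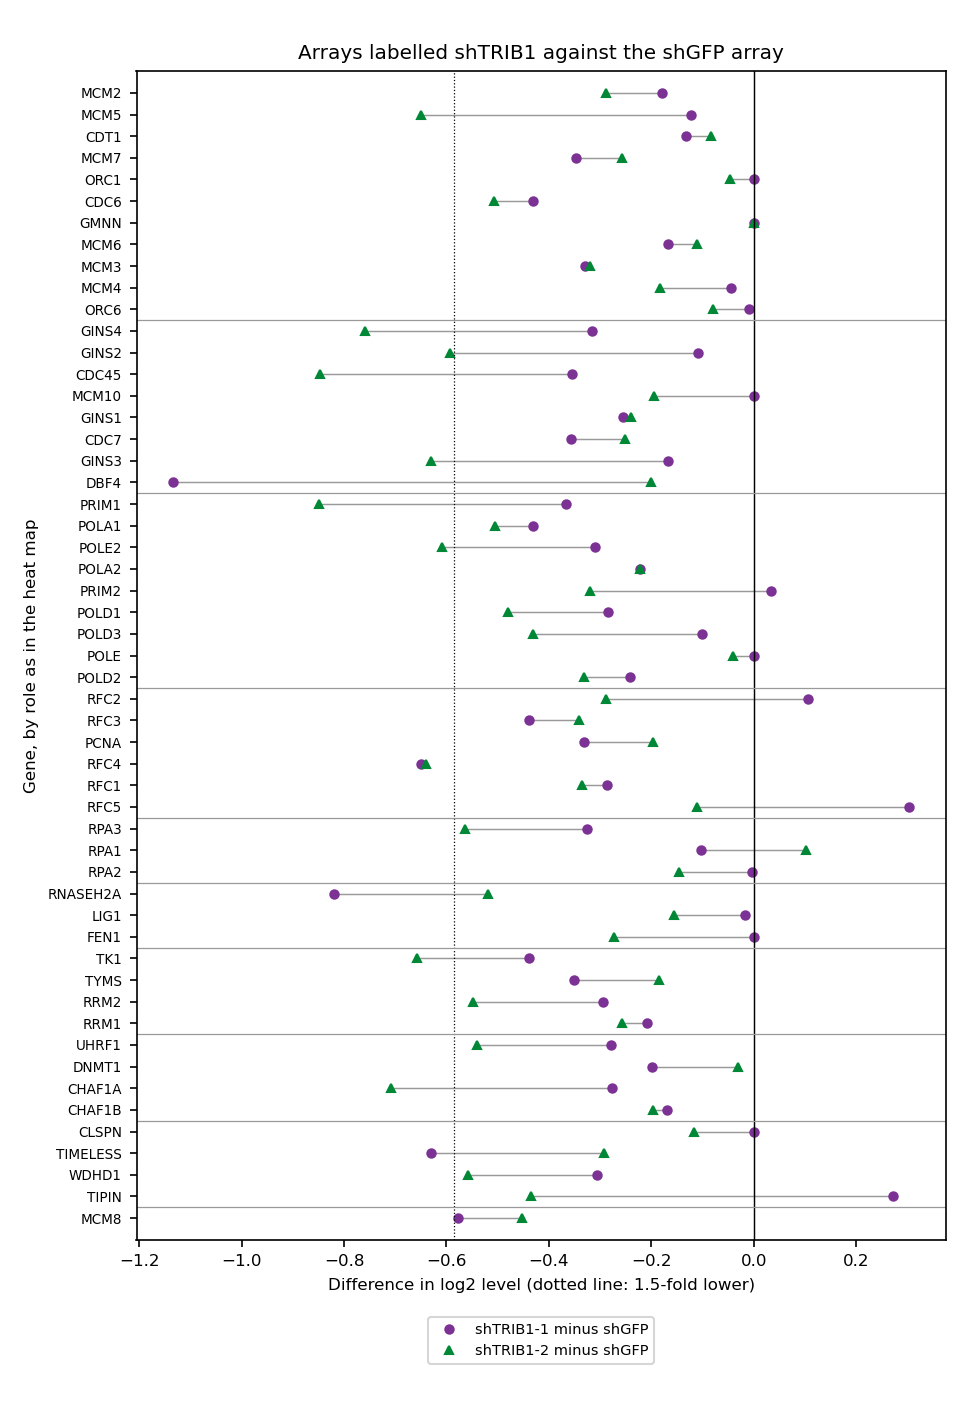
Difference in log2 level from the shGFP array for each replication gene on the arrays labelled shTRIB1-1 (circles) and shTRIB1-2 (triangles), with genes in rows by role. Most points lie below 0, and DBF4 with shTRIB1-1 is the only one beyond 2-fold; ORC1 and CLSPN are drawn although near background on all 3 arrays.

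Other genes of replication, outside the 53, were lower in spheroids less deeply. Of 43 listed, 40 had a probe set and 39 reached a level of 6, and 13 of those were at least 2-fold lower in spheroids than in 2D (33.3%, median -0.69). TOP2A, which untangles sister DNA and is as much a mitotic gene, differed by -3.09, DTL, an adaptor that marks CDT1 for destruction, by -2.11, and the nuclease DNA2 by -1.87. The origin recognition subunits ORC2, ORC3, ORC4 and ORC5, read here because ORC1 and ORC6 are members, differed by -0.27, -0.02, -0.05 and -0.15. Each of these 4 genes lay closer to 0 than ORC1 (-1.57) and ORC6 (-1.12). Against the shGFP array the list's medians were -0.10 with shTRIB1-1 and -0.25 with shTRIB1-2. The checkpoint kinase gene CHEK1 had the largest mean over both hairpins, with -0.30 and -1.05. RNASEH2B was lower with shTRIB1-2 (-1.10) and RNASEH2C with shTRIB1-1 (-0.64). The RNASEH2B value rests on signals near background, at 6.09 on the shGFP array and 4.99 with shTRIB1-2.

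Regulators of the G1/S programme were mixed. Of 36 listed genes of the E2F family, the pocket proteins, the DREAM complex and cyclin-dependent kinases, 33 reached a level of 6 in 2D or spheroids, 12 were at least 2-fold lower in spheroids and 1 at least 2-fold higher (median -0.41). FOXM1, a driver of mitotic genes, was at 9.45 in 2D and 6.23 in spheroids (-3.22), CCNA2, the cyclin of S and G2 phase, differed by -2.56, and the repressor E2F8 by -2.52. E2F1, an activator of the replication genes, was at 8.02 in 2D and 8.04 in spheroids. The gene at least 2-fold higher was CDKN1A (p21), an inhibitor of cyclin-dependent kinases, at 7.62 in 2D, 8.94 in spheroids, 7.40 with shGFP, 9.26 with shTRIB1-1 and 7.55 with shTRIB1-2. The inhibitor CDKN1C was at 7.47 in 2D, 8.42 in spheroids, 7.33 with shGFP, 8.88 with shTRIB1-1 and 7.96 with shTRIB1-2. With shTRIB1-1, then, CDKN1A was 1.86 and CDKN1C 1.54 above shGFP on the log2 scale. The inhibitor CDKN1B (1.01) and the cyclin CCND1 (1.19) were also at least 2-fold higher, which makes 4 of the list's 32 genes past the filter. None of the 32 was 2-fold lower, and their median was 0.04. Among all 10522 genes, 210 were at least 2-fold higher. With shTRIB1-2, CDKN1A was 0.14, CDKN1C 0.63, CDKN1B 0.55 and CCND1 0.36 above shGFP, none of them by 2-fold. The 51 replication members had medians of -0.26 with shTRIB1-1 and -0.32 with shTRIB1-2. PCNA differed by -0.33 and -0.20 in that order, MCM2 by -0.18 and -0.29, and TYMS by -0.35 and -0.18. No test of a link between these regulators and the members was made.

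Replication genes differed less in spheroids than mitotic genes did. The 24 mitotic genes were all at least 2-fold lower than in 2D (median -2.77), the lowest being the kinesins KIF20A (-4.13) and CENPE (-3.48) and the kinetochore gene CENPF (-3.37). Against the shGFP array their median was -2.15 and 22 of 23 were at least 2-fold lower, where the replication members' median was -0.53. Between shGFP and 2D the medians lay close together, at -0.69 for mitotic and -0.75 for replication genes. By median, homologous recombination and Fanconi genes stood between in both, at -1.65 against 2D (18 genes) and -0.92 against shGFP (17 genes). By count they did not against 2D, where 11 of 18 (61.1%) were at least 2-fold lower and 79.2% of the members were. Against shGFP the shares were 35.3% and 23.5%. The helicases BRIP1 (-2.19) and BLM (-2.16) and the Fanconi core gene FANCB (-2.13) were the lowest of the recombination and Fanconi genes against 2D. KIF20A, CENPE, BLM and FANCB were under a level of 6 in spheroids. With the hairpins against TRIB1 the mitotic medians were -0.44 and -0.63. These lists were set side by side without a test of the difference, so none of this is shown to be particular to replication genes.

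**Figure D5:**
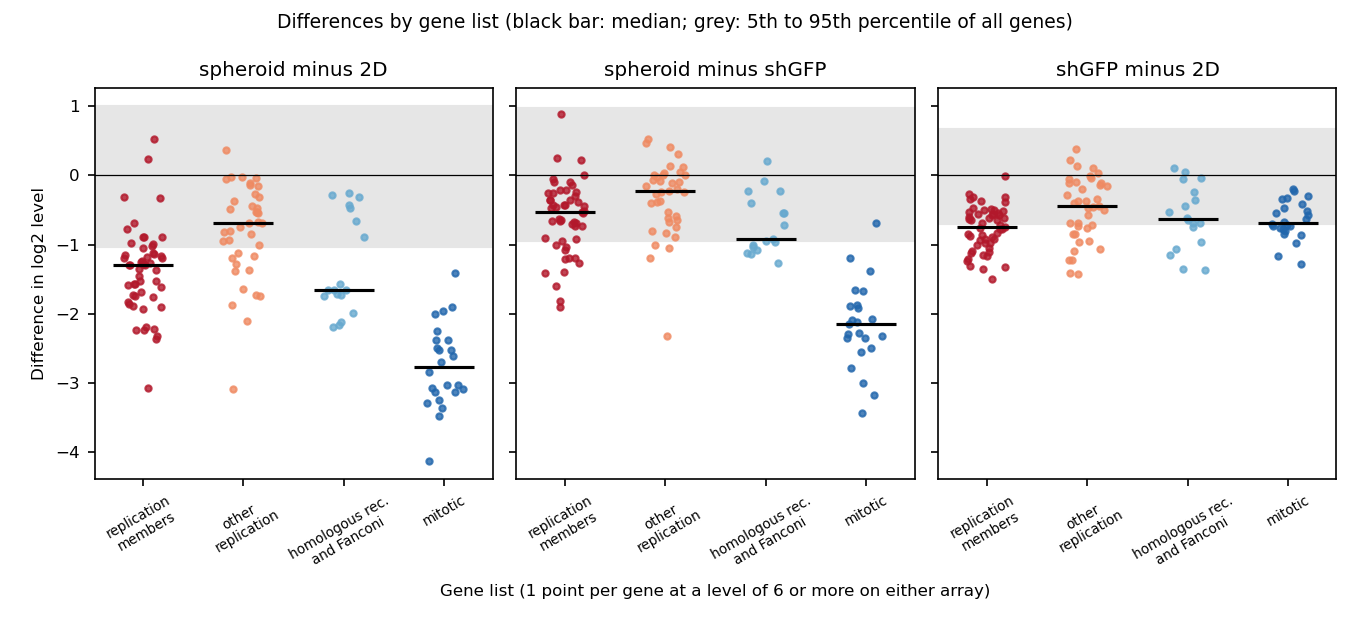
Differences in log2 level for the replication members, other replication genes, homologous recombination and Fanconi genes, and mitotic genes, 1 point per gene, in 3 comparisons; bars are medians, and grey marks the 5th to 95th percentile of all genes. Mitotic genes lie lowest in both spheroid comparisons (medians -2.77 and -2.15), while the replication and mitotic medians are close between shGFP and 2D (-0.75 and -0.69).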

How the data were processed

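Total RNA of PC-3 was measured on 5 arrays. The authors deposited 1 intensity per probe set, made with RMA per the submitters' processing notes. Its version is not stated there, and the values themselves show the scale to be linear. RMA normally includes quantile normalization, which hides changes shared by most genes. Arrays have no depth, and their number limits the precision. Log2 of each intensity was taken, without a pseudocount. Genes came from probe sets with 1 symbol in the platform annotation, 1 per gene by the highest mean level, and the symbols of all 53 members matched RefSeq. Genes at a level of at least 6 on any compared array were counted, at 2-fold or, for hairpins, 1.5-fold. Limma 3.58.1 (R 4.3.3) fitted the hairpin arrays with a trend on mean level, calling genes at a Benjamini-Hochberg adjusted p of 0.05. It was run on simulated data with planted differences far larger than the members', which leaves its power for differences of their size unknown. All 53 members were named, and of each other list the 3 largest differences between spheroid and 2D. Members and lists were chosen with earlier results of these data known. Other genes named outside the 53 (ORC2 to ORC5, E2F1, CCND1, CDKN1A, CDKN1B, CDKN1C, CHEK1, RNASEH2B, RNASEH2C and those of nucleotide metabolism) were picked after their values were seen. Alternatives covered probe set choice, filter, pseudocount, reference, fold limit, trend and each hairpin left out.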

Additional observations from a re-analysis of the deposited data

How the results depend on the processing

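No paired analysis was possible because shGFP, 2D and spheroid have 1 array each, and the numbers in shTRIB1-1 and shTRIB1-2 name different hairpins. The choice of control moved the members' medians and counts. With 2D and shGFP averaged as the control, the spheroid median was -0.93 with 21 of 53 members at least 2-fold lower, and against shGFP alone, a choice added after seeing the data, -0.53 with 12 of 51. TIPIN turned from -1.13 to 0.22 against shGFP. Probe set choice moved some single members further: with the median over probe sets GINS2 went from -2.23 to -0.03, POLA2 from -1.24 to -0.24 and RFC5 from 0.53 to -0.55, and without _s_at and _x_at probe sets CHAF1A went from -1.05 to -0.16 and RFC1 from 0.24 to -0.09. The values so reached for POLA2, CHAF1A and RFC1 rest on probe sets under a level of 6, and that of GINS2 on one at 6.04 in 2D. The count at least 2-fold lower was then 36 of 50 and 28 of 37, and 43 of 53 with RFC5 read from its other probe sets, also added after seeing the data. With the same average as the control, the medians with shTRIB1-1 and shTRIB1-2 were -0.62 and -0.71, with 28 and 33 of 53 members at least 1.5-fold lower (8.7% and 6.86% of genes), and against 2D alone -0.98 and -1.14, with 46 and 46 (12.9% and 11.6% of genes). At a 2-fold limit 1 and 0 members were lower against shGFP (1.86% and 0.817% of genes), and at a level filter of 8, which tests fewer members, 6 were at least 1.5-fold lower with shTRIB1-2 (4.19% of genes). Why the reference matters was not tested. Leaving out each hairpin gave medians of -0.32 and -0.26 for the mean of both, with no residual degree of freedom for a test. Limma called 0 members under all 8 alternatives, with a smallest adjusted p among members of 0.401 to 0.991, and held 42 members at an unadjusted p below 0.05 against 2D alone, where 12.4% of 10612 genes were. With all probe sets of a gene summarised by their median, without _s_at and _x_at probe sets, without a filter, at a filter of 8 and with a pseudocount of 16, the spheroid median ran from -1.35 to -1.26 and the shGFP minus 2D median from -0.75 to -0.65.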
